A study of Mus musculus with 21 samples.

Results

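Gpr50, Phactr3, Trib2 and Col5a1 are 4 of the 24594 genes counted in RNA-seq libraries of mouse embryonic pharyngeal arches and outer ears. They were selected on their measured change between arches of embryos lacking HIRE1 and wild-type (WT) arches, with earlier results of these data known, and because they lie outside the Hox clusters and outside chromosome 6, on which HIRE1 and Hoxa2 lie. The values of the 4 genes in that comparison are therefore given as a description without a test. Each gene was found by its symbol in both count tables and passed the filter on low values in both.

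Libraries fell into 7 groups of 3. The genotype series held the neighbouring pharyngeal arches PA2 and PA3, dissected at E10.5 (embryonic day) from WT embryos and from HIRE1del/del embryos, here called HIRE1del, in which both copies of the distal regulatory region HIRE1 are missing. The deletion was made with CRISPR-Cas9 in C57Bl/6J zygotes and bred through crosses of HIRE1 wt/del mice, and the number of founders is not given in the sources used here. The stage series held cells of embryos with intact HIRE1, taken from PA2 at E10.5 or from the pinna, the visible part of the ear, at E12.5 or E14.5. Those cells came from Wnt1::Cre;ROSARFP embryos and were sorted for a red reporter that is switched on in progenitors of the neural crest, the migratory cells that form the mesenchyme of the arches, and that stays on in their descendants. The Wnt1 promoter drives Cre in those progenitors. Mice were kept on a mixed background of C57Bl/6J and CD1, and embryos were pooled without regard to sex.

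Library totals ran from 25.8 to 32.2 M counts for genotypes and from 25.8 to 49.1 M for stages. Levels are given in CPM, counts scaled to a common library total after TMM correction for differences in composition. All libraries are labelled as cranial neural crest cells, but no sort is stated for the genotype series, and markers of other cells were present in it. The 5 blood genes summed to 1516 to 24322 CPM in genotype libraries against 1.83 to 11.6 CPM in sorted libraries, the 5 epithelial genes to 168 to 524 against 7.35 to 35.1 CPM, and the 5 endothelial genes to 216 to 270 against 6.52 to 172 CPM. Genotype libraries were therefore read as whole arches, in which fewer cells of a type and less RNA per cell cannot be told apart. Hoxa2, the gene that patterns PA2 and that HIRE1 is proposed to control, was at 73.4 to 84.2 CPM in WT PA2 and at 4.75 to 7.09 CPM in HIRE1del PA2, and at 56.1 to 65.1 and 22.1 to 25.6 CPM in PA3, so that the genotype labels held in every library.

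The 4 genes belong to unrelated families. Gpr50 is an orphan G protein-coupled receptor, related in sequence to the melatonin receptors but not known to bind melatonin, and it is encoded on the X chromosome. Phactr3 is a member of the phosphatase and actin regulator family, whose proteins bind protein phosphatase 1 (PP1) and actin monomers. Trib2 is a Tribbles pseudokinase, a scaffold that brings C/EBP transcription factors to the ubiquitin ligase COP1. Col5a1 encodes an alpha chain of collagen V, a minor fibrillar collagen that nucleates collagen I fibrils and limits their width in connective tissue.

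On the GRCm38 genome with the GENCODE M21 annotation, Gpr50 (ENSMUSG00000056380) lies on chromosome X at 71663667 to 71669257 on the plus strand. Phactr3 (ENSMUSG00000027525) lies on chromosome 2 at 178118975 to 178338492 on the plus strand. Trib2 (ENSMUSG00000020601) lies on chromosome 12 at 15791727 to 15816922 on the minus strand. Col5a1 (ENSMUSG00000026837) lies on chromosome 2 at 27886425 to 28039514 on the plus strand, so that it and Phactr3 share a chromosome but not a neighbourhood. No exon base of Gpr50, Phactr3 or Trib2 is shared with another annotated gene, while Col5a1 shares 99 and 113 exon bases with the transcripts 2810430I11Rik and Gm13372 on the other strand, out of 8490.

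RefSeq promoters (GRCm38.p6) were matched by symbol for 3 of the 4 genes, all but Phactr3, and are shown since Gpr50 and Trib2 were higher and Col5a1 was lower in the arches that had lost most Hoxa2 transcript. The 250 bases before each RefSeq start were searched on both strands for TGATNNAT, the letters bound by Pbx-Hox pairs, and for TGACAG, the letters bound by Meis proteins. Matches of the 2 motifs did not overlap each other. They are in capitals, the sequences are written 5′ to 3′ on the strand of the gene, and the 137 bases of the Trib2 window that GENCODE places inside the gene are not printed.
Gpr50, chrX:71663417-71663666, plus strand: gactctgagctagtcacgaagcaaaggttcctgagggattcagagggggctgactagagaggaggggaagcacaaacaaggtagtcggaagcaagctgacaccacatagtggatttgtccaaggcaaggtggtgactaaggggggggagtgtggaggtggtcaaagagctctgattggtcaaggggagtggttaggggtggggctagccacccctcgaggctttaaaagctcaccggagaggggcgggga
Trib2, chr12:15816923-15817035, minus strand: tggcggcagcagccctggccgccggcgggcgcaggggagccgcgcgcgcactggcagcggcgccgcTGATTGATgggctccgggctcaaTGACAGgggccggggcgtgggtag
Col5a1, chr2:27886175-27886424, plus strand: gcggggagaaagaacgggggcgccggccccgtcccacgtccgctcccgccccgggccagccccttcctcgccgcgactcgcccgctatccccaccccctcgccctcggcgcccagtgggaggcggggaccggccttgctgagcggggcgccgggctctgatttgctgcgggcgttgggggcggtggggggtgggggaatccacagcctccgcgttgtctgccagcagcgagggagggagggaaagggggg

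The Trib2 window held 1 match to each motif, TGATTGAT at 184 to 177 bases and TGACAG at 161 to 156 bases before the RefSeq start. Neither motif was found in the Gpr50 or Col5a1 window. Of 32841 promoter windows of the same length, 7.69% held TGATNNAT and 15.9% held TGACAG, so that many promoters hold either match. The share of windows holding both, as the Trib2 window did, was not counted. G and C made up 76.4% of the Col5a1 window, 73.6% of the Trib2 window and 56.8% of the Gpr50 window.

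**Figure D1:**
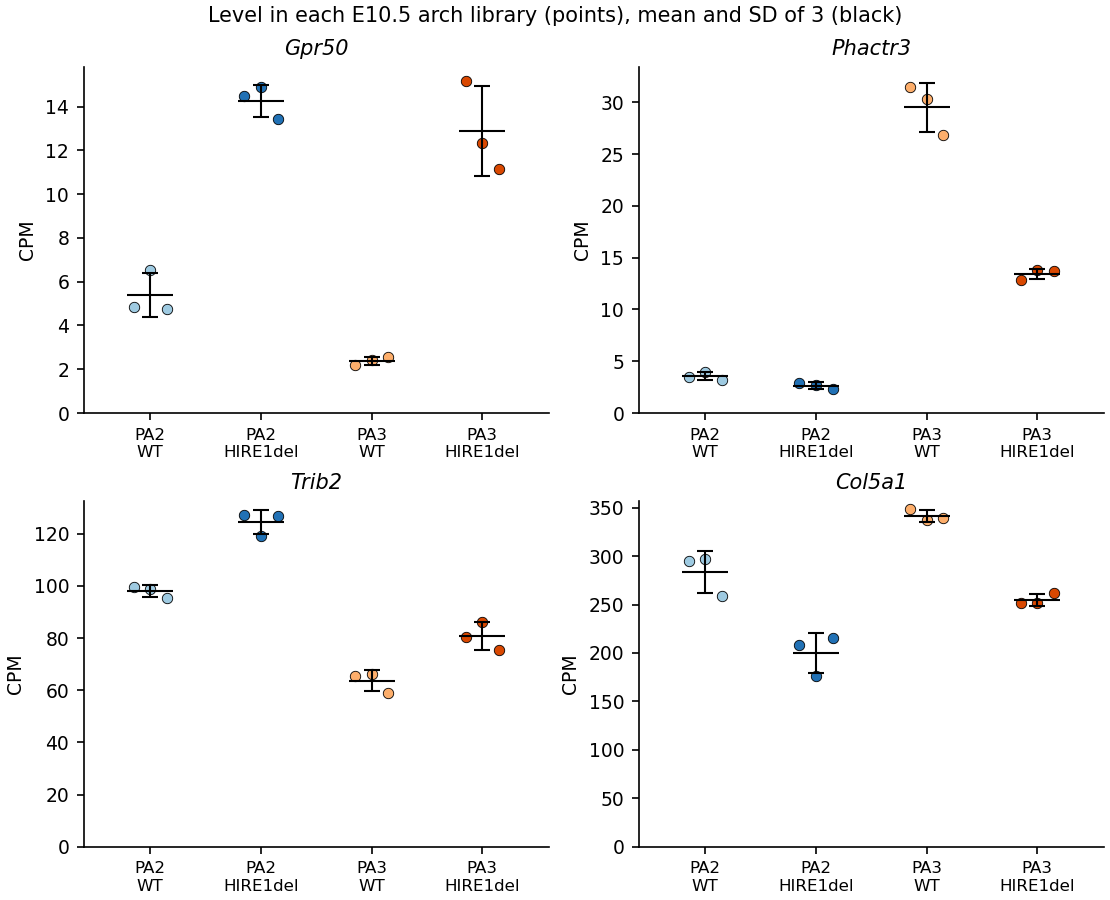
Level in CPM (y axes, from 0) of the 4 genes in each of the 12 libraries of the genotype series. Points are libraries, and black bars give the mean and SD of 3. HIRE1del libraries lie above WT libraries of the same arch for Gpr50 and Trib2 and below them for Phactr3 and Col5a1.

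In HIRE1del arches the 2 signalling and scaffold genes, Gpr50 and Trib2, were higher and Phactr3 and Col5a1 were lower, in PA2 and in PA3. This direction is what the genes were chosen for. In each arch the replicate ranges of HIRE1del and WT were apart for 4 of the 4 genes, where 13.2% of all 14383 genes tested were apart in PA2 and 14.3% in PA3. The quasi-likelihood test of edgeR, with p adjusted over all genes after Benjamini-Hochberg, called 0.438% of genes in PA2 (0.118% higher and 0.32% lower), 0.216% in PA3 (0.0556% higher and 0.16% lower) and 0.0487% for the difference between the arches, all of them lower (0.0487%).

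Gpr50 was at 4.84, 6.56 and 4.77 CPM in WT PA2 and at 14.47, 14.9 and 13.5 CPM in HIRE1del PA2. In PA3 it was at 2.18, 2.43 and 2.54 CPM in WT and at 15.2, 12.3 and 11.2 CPM in HIRE1del. Its mean thus went from 5.39 ± 1.01 to 14.3 ± 0.738 CPM in PA2 and from 2.38 ± 0.185 to 12.9 ± 2.05 CPM in PA3 (SD, n = 3 each). The fitted log2 fold changes were 1.40 (SE 0.146) in PA2 and 2.43 (SE 0.158) in PA3, larger in size than that of 99.7% and 99.95% of the genes tested. These levels rest on 57 to 187 counts per library in WT and on 321 to 405 counts in HIRE1del.

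The WT arches differed in Gpr50, whereas the replicate ranges of the HIRE1del arches overlapped, at 13.5 to 14.9 CPM in PA2 and 11.2 to 15.2 CPM in PA3. The difference of its HIRE1del effects, PA2 minus PA3, was -1.02 (SE 0.214) on the log2 scale, a description like the effects themselves. Because Gpr50 is X-linked, the sex of the pools is given beside it. The 4 Y-linked genes summed to 0.271 CPM in WT PA2 replicate 1 and to 6.62 CPM in WT PA3 replicate 1, against 117 to 268 CPM in the other genotype libraries, and Xist was at 108 to 721 CPM in WT and 115 to 198 CPM in HIRE1del. The part of pool sex in the Gpr50 values was not tested. As a further description, leaving out any 1 library gave a Gpr50 log2 fold change of 1.32 to 1.57 in PA2 and of 2.29 to 2.52 in PA3.

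Phactr3 was at 3.45, 4.00 and 3.23 CPM in WT PA2 and at 2.93, 2.69 and 2.29 CPM in HIRE1del PA2. In PA3 it was at 31.5, 30.3 and 26.9 CPM in WT and at 12.9, 13.8 and 13.7 CPM in HIRE1del. The gap between genotypes was therefore narrow in PA2, where only 62 to 114 counts per library were seen, and wide in PA3. On the log2 scale Phactr3 changed by -0.43 (SE 0.129) in PA2 and by -1.13 (SE 0.103) in PA3, which left 45.5% of the WT mean in PA3. The difference of these effects was 0.70 (SE 0.165). HIRE1del PA3 still held 3.78 times the mean Phactr3 level of WT PA2, with ranges apart, as they were for 43.4% of all genes between these groups.

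Trib2 was at 99.7, 98.9 and 95.5 CPM in WT PA2 and at 127, 119 and 127 CPM in HIRE1del PA2. In PA3 it was at 65.6, 66.2 and 59.1 CPM in WT and at 80.6, 86.3 and 75.3 CPM in HIRE1del. The rise was of the same size in both arches, with a log2 fold change of 0.34 (SE 0.0598) in PA2 and 0.34 (SE 0.0607) in PA3. The difference of the 2 effects was 0.00 (SE 0.0865), so that the step between the arches was 1.54-fold in both genotypes.

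Col5a1 was at 294.9, 297.1 and 259 CPM in WT PA2 and at 209, 176 and 215 CPM in HIRE1del PA2. In PA3 it was at 348, 337 and 339.8 CPM in WT and at 251, 251 and 262 CPM in HIRE1del. These are log2 fold changes of -0.50 (SE 0.0713) in PA2 and -0.42 (SE 0.071) in PA3, and the difference of the effects was -0.08 (SE 0.1). The mean level left was 70.6% of WT in PA2 and 74.6% in PA3. HIRE1del PA3 overlapped WT PA2, at 251 to 262 against 259 to 297.1 CPM.

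Across the 4 genotype groups, the mean level of Gpr50 was lowest in WT PA3, then WT PA2, and highest in the HIRE1del arches, which did not differ beyond their spread. Phactr3 rose in the order HIRE1del PA2, WT PA2, HIRE1del PA3 and WT PA3, and Trib2 in the order WT PA3, HIRE1del PA3, WT PA2 and HIRE1del PA2, each with all neighbours apart. Col5a1 rose from HIRE1del PA2 through HIRE1del PA3 and WT PA2, which overlapped, to WT PA3.

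Between genes, levels are set side by side only per kilobase of exon, and 2 such orders differed by genotype. In PA2, Col5a1 stood above Trib2 in WT, at 33.1 ± 2.53 against 22.6 ± 0.515 CPM per kilobase, and below it in HIRE1del, at 23.4 ± 2.44 against 28.7 ± 1.06. In PA3, Gpr50 stood below Phactr3 in WT, at 0.777 ± 0.0602 against 4.61 ± 0.369 CPM per kilobase, and above it in HIRE1del, at 4.20 ± 0.668 against 2.10 ± 0.0783 (SD, n = 3 each).

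Of the non-crest markers, the neuronal list moved with genotype in PA2. Its 5 genes summed to 75.4 to 77.5 CPM in WT PA2 and 55.9 to 58.2 CPM in HIRE1del PA2, with none at or under 3 counts in every library, and overlapped in PA3 at 156 to 214 and 136 to 205 CPM. Its part in the PA2 values of the 4 genes was not tested. The 5 genes of melanocytes and glia summed to 11.66 to 12.9 CPM in WT and 9.39 to 11.69 CPM in HIRE1del PA2, and to 19.1 to 21.6 (median 21.04) and 11.9 to 22.1 (median 13.1) CPM in PA3, with ranges that overlapped, and their part was not tested either. Epithelial, endothelial, blood, muscle and crest mesenchyme sums also overlapped between genotypes in both arches.

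**Figure D2:**
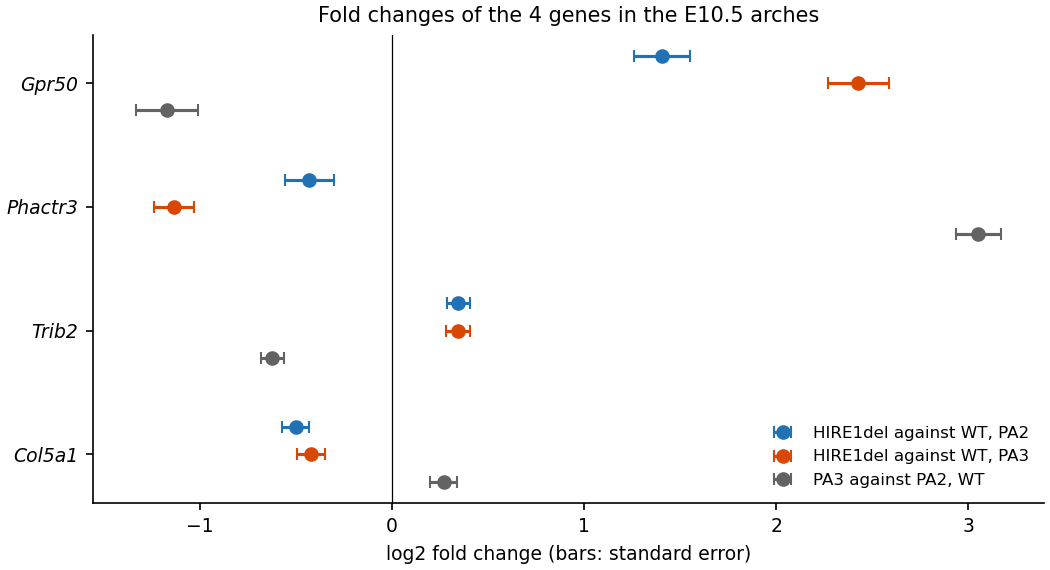
Fitted log2 fold change (x axis) of each gene for HIRE1del against WT in PA2 (blue) and in PA3 (orange) and for PA3 against PA2 in WT (grey), with bars of 1 standard error. The Gpr50 points lie at 1.40 (blue), 2.43 (orange) and -1.17 (grey), and the comparisons share WT libraries.

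Genes of the same families and of the known partners were taken from lists set by family or pathway. They held 58 genes other than the members, of which 53 passed the filter in the genotype series. In HIRE1del, 0 of the 53 were called by edgeR in either arch, where 0.438% of all genes tested were called in PA2 and 0.216% in PA3. At shares this low, 0 calls among 53 genes says little about these families. At an unadjusted p under 0.05 of the edgeR test there were 8 in PA2 and 3 in PA3, and the share of all genes at that p is not given here. DESeq2 called 1 of the 53 in PA2, Col2a1 (log2 fold change 0.25, SE 0.0664, adjusted p 0.0167), and 0 in PA3. Over all 14383 genes it called 162 in PA2 and 94 in PA3, so that 1 call among the 53 says little either. The median log2 fold change of the 53 was -0.04 in PA2 and -0.04 in PA3, against -0.01 and 0.00 over all genes tested.

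None of the relatives of the members passed the edgeR test in HIRE1del arches. The other Phactr genes had log2 fold changes of -0.17 to -0.04 in PA2 and -0.14 to 0.04 in PA3. Phactr2 in PA2, at -0.16 (SE 0.0473), was at 81.5 to 84.8 CPM in WT and 71.3 to 76.6 CPM in HIRE1del. Those ranges were apart, as in 13.2% of all genes in PA2. Trib1 was at 40.2 ± 1.26 CPM in WT PA2 and 41.7 ± 1.79 CPM in HIRE1del PA2 (SD, n = 3 each), and Trib3 at 1.77 ± 0.4 and 1.69 ± 0.186 CPM. In PA3, Trib1 was at 28.6 to 30.2 CPM in WT and 31.1 to 34.4 CPM in HIRE1del (log2 0.15, SE 0.0617). These ranges were apart, as in 14.3% of all genes in PA3. Trib3 in PA3 was at 6.19 ± 1.85 and 5.78 ± 0.478 CPM. Col5a3, a further collagen V gene, had the largest change of these in PA2 (log2 -0.75, SE 0.311), on 13 to 34 counts per library. Col5a2, whose chain joins that of Col5a1 in the common form of collagen V, was at 187 ± 24.1 CPM in WT PA2 and 174 ± 21.5 CPM in HIRE1del PA2, and at 183 ± 32 and 164 ± 19.1 CPM in PA3. The melatonin receptor genes Mtnr1a and Mtnr1b had 0 to 2 counts per library in the genotype series, so that Gpr50 was the one measurable gene of its family.

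WT PA3 was compared with WT PA2 to see where the 4 genes stand in arches that carry HIRE1. This contrast uses other group differences than the one that chose the genes but shares its 6 WT libraries. The edgeR test called 4 of the 4 genes, where 36.5% of all genes tested were called, and the ranges were apart for 4 of the 4, where 49.9% of all genes were apart. Phactr3 was 8.30-fold higher in PA3 (log2 fold change 3.05, SE 0.115, adjusted p 6.14e-09), larger in size than 98.9% of genes. Col5a1 was 1.21-fold higher in PA3 (log2 0.27, SE 0.0709, adjusted p 0.00957). Gpr50 was 2.25-fold lower in PA3 (log2 -1.17, SE 0.162, adjusted p 0.00012) and Trib2 1.54-fold lower (log2 -0.62, SE 0.0606, adjusted p 6.63e-06).

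In HIRE1del arches, PA3 held 5.10 times the Phactr3 mean, 1.27 times the Col5a1 mean and 64.9% of the Trib2 mean of PA2, with ranges apart in each as in 45% of all genes, and 90.3% of the Gpr50 mean, with ranges overlapping. Cell makeup moved with the arch as well. The blood genes summed to 1516 to 2383 CPM in WT PA2 and 12296 to 24071 CPM in WT PA3, the epithelial genes to 183 to 202 and 406 to 524 CPM, and the crest mesenchyme genes to 943 to 1054 and 623 to 787 CPM, and the part of this in the arch values was not tested.

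Among the 53 listed genes, 11 were called higher and 13 lower in WT PA3, where 19.1% of all genes were called higher and 17.4% lower. The median log2 fold change of the list was 0.00 and that of all genes 0.00. Phactr1, Phactr2 and Phactr4 were not called, with log2 fold changes of -0.11 to -0.09, beside 3.05 for Phactr3. Of the PP1 and actin partners, the PP1 subunit genes Ppp1cb (log2 -0.29, adjusted p 0.00477) and Ppp1cc (-0.27, 0.00243) and the actin gene Actg1 (-0.16, 0.0275) were lower in PA3. The Actg1 call was lost without WT PA2 replicate 2 or 3 or WT PA3 replicate 1 or 2, at adjusted p of 0.071 to 0.0961, and when 1 CPM was required in every library (-0.13, adjusted p 0.0565).

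Of the Tribbles genes, Trib1 was lower in PA3 (log2 -0.45, adjusted p 0.000112), as Trib2 was, while Trib3 was higher (1.80, adjusted p 7.31e-05). Among Tribbles partners, Cop1, which encodes the ubiquitin ligase, was lower (-0.19, adjusted p 0.00821) and Cebpb, a C/EBP factor, higher (0.99, adjusted p 0.00907). The kinase gene Akt2 was higher (0.18, adjusted p 0.0166), a call lost without WT PA2 replicate 3 (0.14, adjusted p 0.0818) or WT PA3 replicate 2 (0.16, adjusted p 0.0663). Of the proteins reported to bind Gpr50, the TGF-beta receptor gene Tgfbr1 was lower (-0.34, edgeR adjusted p 0.00091), as Gpr50 was. The acetyltransferase gene Kat5 (-0.002, edgeR adjusted p 0.986) and Rtn4 (-0.09, edgeR adjusted p 0.223) were not called.

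Among fibrillar collagens, the collagen I genes Col1a1 (log2 1.44, adjusted p 6.79e-05) and Col1a2 (0.60, adjusted p 0.0104) were higher in PA3, as Col5a1 was, and the cartilage collagen genes Col2a1 (-0.30, adjusted p 0.00268) and Col11a1 (-0.33, adjusted p 0.00897) were lower. Col5a2 was not called (-0.03, SE 0.133, adjusted p 0.885). Of the 20 tested genes of collagen fibril assembly, 6 were higher and 5 lower. Lum (2.18), Dcn (1.38), both fibril-binding proteoglycans, and the cross-linking enzyme Loxl2 (1.25) rose most. Lox (-2.02), Tll1 (-0.66) and Adamts3 (-0.66) fell most, and the call of Adamts3 was lost without WT PA2 replicate 3 (-0.43, adjusted p 0.0685).

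**Figure D3:**
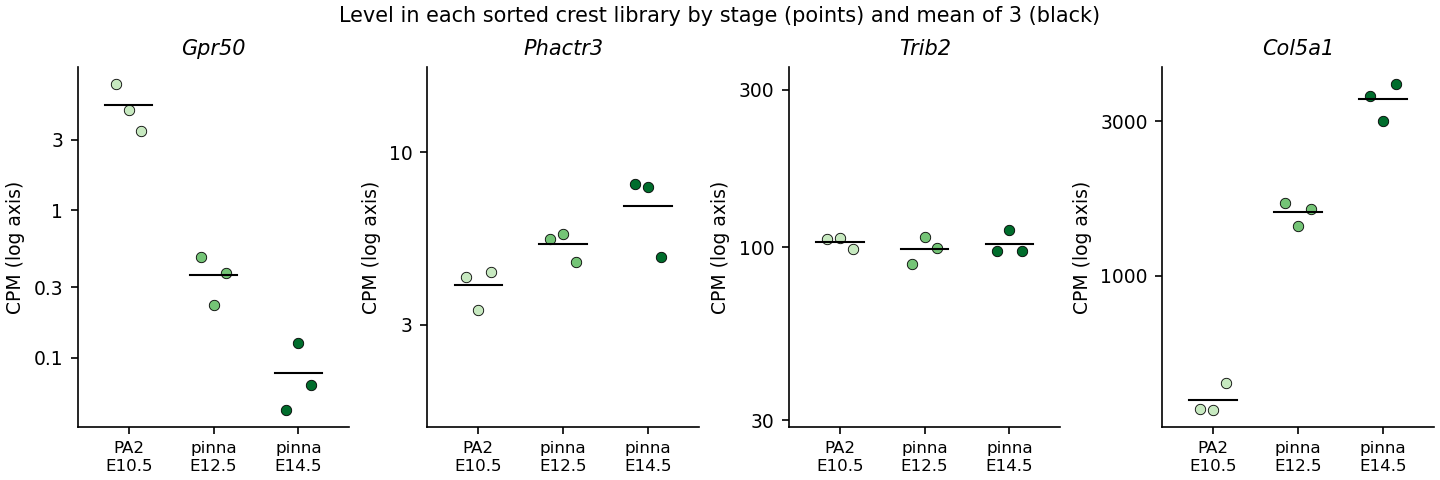
Level in CPM (log y axes) of the 4 genes in each of the 9 sorted libraries of the stage series, by stage. Points are libraries and black lines the mean of 3. The Gpr50 level is lower and that of Col5a1 higher at each step, while Trib2 stays between 88.9 and 113 CPM.

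The stage libraries did not enter the comparison that chose the genes, although earlier results on them were known. They followed sorted crest cells from PA2 at E10.5 to the pinna that PA2 gives rise to. From E10.5 to E14.5, Col5a1 rose at each step, the Gpr50 level was lower at each step, Phactr3 was higher at E14.5 than at E10.5, and Trib2 did not pass the test between any stages. The edgeR test called 2 of the 4 genes between E10.5 and E12.5, 2 between E12.5 and E14.5 and 3 between E10.5 and E14.5, where 68.8%, 65.7% and 82% of all 13438 genes tested were called, so that a call here is common. Gpr50 is 1 of the genes called in each, and its call is no support, because of how it passed the filter. Among all genes, 35% were called higher and 33.7% lower for the first step and 32.6% and 33.1% for the second. Replicate ranges were apart for 3 of the 4 genes, 2 of the 4 and 3 of the 4, against 74.5%, 69.6% and 84% of all genes. Gpr50 is 1 of the genes apart in each, which is no support either, because of the same filter. Tissue was digested with trypsin at E10.5 and E12.5 and with papain at E14.5, so that the enzyme and the last stage cannot be told apart.

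Gpr50 was at 7.19, 4.74 and 3.43 CPM in PA2 at E10.5, at 0.483, 0.229 and 0.374 CPM in the pinna at E12.5 and at 0.0441, 0.126 and 0.0657 CPM at E14.5. The groups did not overlap, and the E14.5 libraries held 2, 6 and 3 counts, so that 2 of them were at or under a floor of 3 counts. The gene passed the filter only through its E10.5 libraries, and a fall was thus built into being tested. Summed counts gave a level at E10.5 that was 14.3 times that at E12.5, with a 95% exact counting interval of 9.96 to 21.3. The level at E12.5 was 4.49 times that at E14.5 (2.198 to 9.91), intervals that cover counting error only. The fitted log2 fold change, which depends on the prior count at such levels, was -3.82 (SE 0.384) for the first step and -2.13 (SE 0.553) for the second, and no p is given for it because of the filter.

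Col5a1 was at 389, 385 and 468 CPM at E10.5, at 1677, 1427 and 1607 CPM at E12.5 and at 3575, 3010.4 and 3913 CPM at E14.5. No 2 stages overlapped. The log2 fold change was 1.92 (SE 0.111, edgeR adjusted p 7.14e-08) for the first step, 1.16 (SE 0.108, edgeR adjusted p 3.57e-06) for the second and 3.08 (SE 0.116, edgeR adjusted p 6.49e-10) over both, an 8.45-fold rise. Per kilobase of exon, Col5a1 reached 409 ± 53.3 CPM (SD, n = 3) at E14.5, rank 28 of the 24594 genes, from 48.4 ± 5.49 CPM and rank 944 at E10.5.

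Phactr3 was at 4.18, 3.33 and 4.35 CPM at E10.5, at 5.46, 5.65 and 4.66 CPM at E12.5 and at 7.996, 7.86 and 4.80 CPM at E14.5. Its E12.5 and E14.5 ranges overlapped because of E14.5 replicate 3. Neither step passed the test, with log2 fold changes of 0.41 (SE 0.211, edgeR adjusted p 0.105) and 0.39 (SE 0.203, edgeR adjusted p 0.112), and the whole interval did (0.80, SE 0.206, edgeR adjusted p 0.00369). Without E14.5 replicate 3 the second step was 0.60 (edgeR adjusted p 0.00679).

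Trib2 was at 106, 107 and 98.8 CPM at E10.5, at 88.9, 107 and 99.8 CPM at E12.5 and at 97.4, 113 and 97.7 CPM at E14.5, with each stage overlapping the others. The log2 fold change from E10.5 to E14.5 was -0.02 (SE 0.0823, edgeR adjusted p 0.867), where the median size of change over all genes was 0.766.

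**Figure D4:**
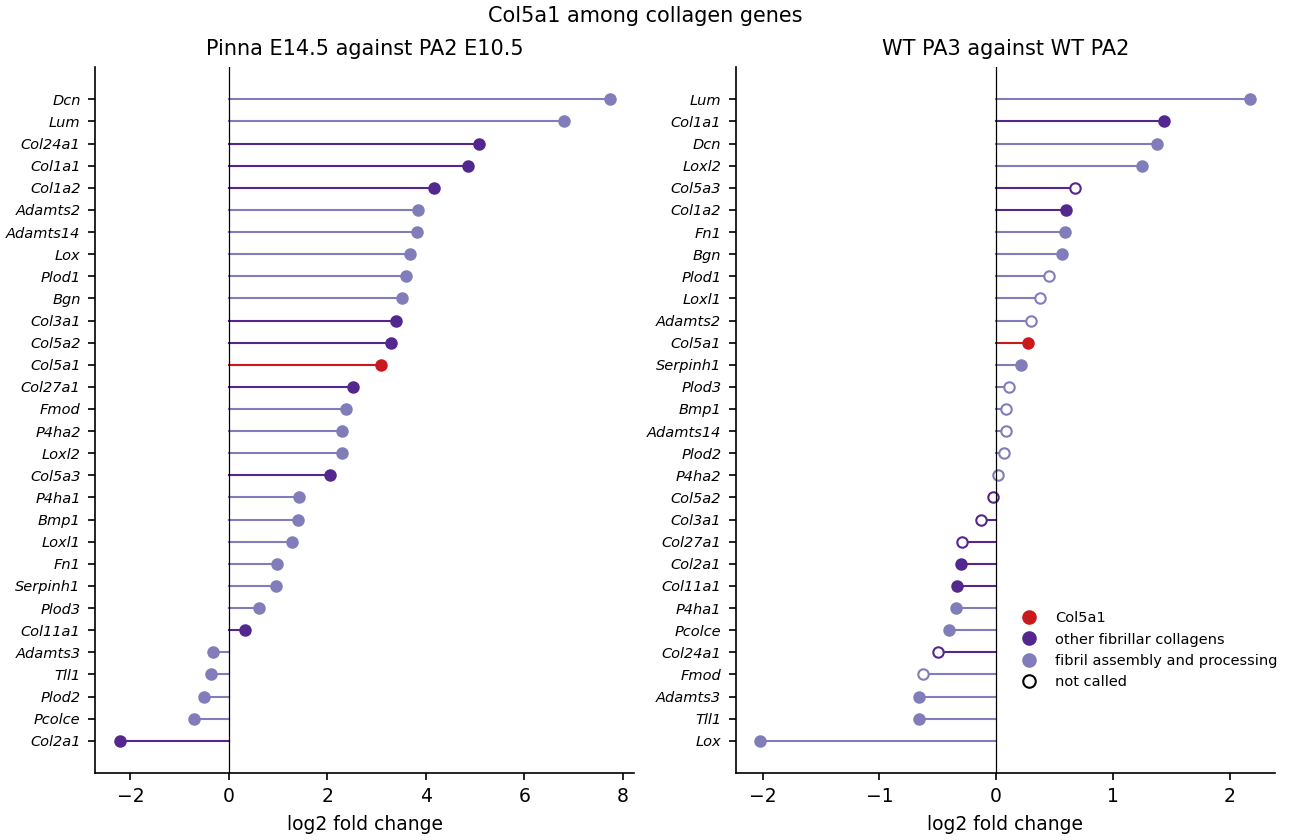
Log2 fold change (x axes) of Col5a1 (red), the other fibrillar collagen genes (dark violet) and genes of fibril assembly and processing (light violet) at E14.5 against E10.5 (left) and in WT PA3 against WT PA2 (right). Filled points were called by edgeR, and Col5a1 at 3.08 on the left has Col5a2 at 3.28 next to it.

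The rise of Col5a1 stood beside that of other collagen genes. At E14.5 against E10.5, 8 of the 9 other tested fibrillar collagen genes were called higher and 1 lower, with a median log2 fold change of 3.28 against 0.02 over all genes. Col24a1 (5.07), Col1a1 (4.86) and Col1a2 (4.16) rose most, and Col2a1, the cartilage collagen, fell (-2.22). Col5a2 rose by 3.28 (SE 0.0776), from 37.5 to 365 CPM per kilobase, beside 48.4 and 409 for Col5a1, and Col5a3 by 2.05 (SE 0.422) to 0.855 CPM per kilobase. Of 20 tested genes of fibril assembly, 16 were higher and 4 lower, where 42% and 40% of all genes were called so. Fmod, among the 16, was at 0.268 to 0.621 CPM at E10.5 and 0.457 to 0.668 CPM at E12.5. Its call is no support, since it passed the filter only through its E14.5 libraries. Plod1, also among the 16 (log2 3.59, SE 1.45), ran from 18 to 986 counts over the E14.5 libraries. Dcn (7.73), Lum (6.80) and the propeptidase gene Adamts2 (3.84) rose most, and Pcolce (-0.70), an enhancer of propeptide removal, Plod2 (-0.50), a lysyl hydroxylase, and Tll1 (-0.35), a propeptidase, fell most over the whole interval. Tll1 had risen by 1.14 from E10.5 to E12.5 (edgeR adjusted p 2.36e-06) and changed by -1.49 from E12.5 to E14.5 (edgeR adjusted p 3.68e-07).

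The Phactr genes moved apart. At E14.5 against E10.5, Phactr1 was higher (log2 1.98, SE 0.172, edgeR adjusted p 6.08e-07), as were Phactr2 (0.43, SE 0.0602, edgeR adjusted p 3.71e-05) and Phactr3, while Phactr4 was lower (-0.64, SE 0.0789, edgeR adjusted p 1.27e-05). The path was not even, since from E10.5 to E12.5 Phactr1 (-0.54, SE 0.186, edgeR adjusted p 0.0223) and Phactr2 (-0.61, SE 0.0614, edgeR adjusted p 5.34e-06) were lower before they rose. Per kilobase, Phactr3 at 1.07 ± 0.283 CPM was below Phactr1 (2.53), Phactr4 (6.68) and Phactr2 (8.58) at E14.5. Of 7 tested PP1 and actin partner genes, 0 were called higher and 5 lower, which were the actin genes Actb (-0.99) and Actg1 (-0.91), Ppp1cc (-0.46) and the actin-regulated transcription factor genes Srf (-0.42) and Mrtfa (-0.37). Ppp1ca, a PP1 subunit gene that most cells use, had 0 to 4 counts in each of the 21 libraries and was not tested.

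Trib1 fell (log2 -1.32, SE 0.174, edgeR adjusted p 2.26e-05) while Trib2 did not pass the test, and Trib3 was at 0.564 to 0.572 CPM on average at every stage and was not tested. Of the Tribbles partners, 5 were higher and 2 lower of 9. Cebpb is among the 5, and its call is no support. It was at 0.588 to 0.970 CPM at E10.5 and 0.718 to 0.780 CPM at E12.5. The gene passed the filter only through its E14.5 libraries, so a rise was built into being tested. Cebpb (2.84) and the transcription factor gene Foxo3 (1.08) were among those that rose, and the kinase gene Map2k4 (-0.42) and Cop1 (-0.20, adjusted p 0.03) fell, the last a call lost when 1 CPM was required in every library (adjusted p 0.117) and without E10.5 replicate 1 or 2 or E14.5 replicate 1 or 3, at adjusted p of 0.0589 to 0.119. Of the proteins reported to bind Gpr50, Tgfbr1 was lower (-0.61), the acetyltransferase gene Kat5 higher (0.27) and Rtn4 not called (-0.20). In all, 32 of the 52 listed genes tested were higher and 15 lower at E14.5, where 42% and 40% of all genes were called so. Cebpb and Fmod are among the 32, and their calls are no support because of the filter.

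Markers moved with stage too. The 5 crest mesenchyme genes summed to 1512 to 1744 CPM at E10.5, 3254 to 3527 at E12.5 and 3561 to 3958 at E14.5. Neuronal genes fell from 36.2 to 42.9 CPM through 22.2 to 25.5 to 7.67 to 8.49 CPM, while endothelial genes went from 6.52 to 8.82 CPM to 108 to 172 CPM and genes of melanocytes and glia from 14.7 to 17.1 CPM to 212 to 258 CPM between E10.5 and E14.5. At E14.5, 2 of the 5 neuronal genes were at or under 3 counts in every library. So was 1 of the 5 endothelial genes, Cldn5, at E14.5 and in every other group of both series. The part of these cells in the stage values was not tested.

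The 2 tables were normalized apart and are not compared by a test, but both hold WT PA2 at E10.5. Whole arches were read paired-end and sorted cells single-end, so that the sort and the read layout cannot be told apart. Side by side, Gpr50 was at 5.39 ± 1.01 CPM in the whole arch and 5.12 ± 1.91 CPM in sorted cells, Phactr3 at 3.56 ± 0.395 and 3.95 ± 0.546 CPM, Trib2 at 98.1 ± 2.23 and 104 ± 4.45 CPM, and Col5a1 at 284 ± 21.7 and 414 ± 47 CPM (SD, n = 3 each). HIRE1del pinnae were not analysed here.

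The genes whose pattern was most like each member were found by Pearson correlation of log2(CPM + 0.5) over the 12 genotype libraries, among 12724 other genes with an average of at least 1 on the log2 CPM scale. The points share 4 groups, so that r follows the group means, and no p is given. Closest to Gpr50 were Rdh11, a retinol dehydrogenase gene (r = 0.927), Zfp786 (0.88) and Crcp (0.871). Rdh11 moved far less than Gpr50, from 43.9 to 46.8 CPM in PA2 and from 42.3 to 47.8 CPM in PA3. Closest to Phactr3 were the adhesion gene Flrt1 (r = 0.987), the transcription factor gene Mef2c (0.987) and Filip1l (0.987). Flrt1 followed it in size as well, with group means of 2.50 and 2.205 CPM in WT and HIRE1del PA2 and of 14.8 and 7.04 CPM in WT and HIRE1del PA3.

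Closest to Trib2 were Bok (r = 0.966), of the Bcl2 family, Bzw2 (0.964) and Ncbp1 (0.963), a cap-binding protein gene, and closest to Col5a1 were the ephrin receptor gene Ephb2 (r = 0.935), the zinc finger gene Zfp503 (0.931) and Sspo (0.931). Zfp503 went from 85.6 to 47.3 CPM in PA2 and from 98.4 to 66.4 CPM in PA3 between WT and HIRE1del. Ranked by Spearman correlation in place of Pearson, 0 of the 3 genes named for Gpr50, 1 of the 3 for Phactr3, 1 of the 3 for Trib2 and 3 of the 3 for Col5a1 were named again.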

How the data were processed

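RNA-seq was done on 12 libraries of the genotype series (paired-end) and 9 of the stage series (single-end), 3 per group. The deposited values are raw counts per gene, which the authors made by spliced alignment to GRCm38 with QuasR and by counting reads that overlap UCSC known genes, with orientation set as opposite. The kit is described as unstranded, so a gene and its antisense partner may not be told apart, and reads on the other orientation were not counted. No column of values was left unused (0).

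Counts were analysed with edgeR 4.0.16 in R 4.3.3. A gene was kept when 2 or more libraries of its table reached 1 CPM (14383 and 13438 genes). After TMM scaling, each table had 1 model of group means, and its contrasts were tested by the two-sided quasi-likelihood test with Benjamini-Hochberg adjustment over all genes, called under 0.05. The SE is the fold change divided by the root of F. The common dispersion was 0.00979 and 0.0102. DESeq2 1.42.0 was an alternative, with other scalings, filters, fits to the 6 libraries compared, a replicate block and each library left out. The pipeline was tested on simulated data.

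The members and gene lists were chosen with earlier results of these data known. Lists hold families and partners, not genes picked for how they moved. Named are all list genes called in the arch contrast and from E10.5 to E14.5, or up to 3 with the largest change in each direction where over 6 of a list were called. One listed gene that this rule names is not reported here. Phactr genes, collagen V genes and melatonin receptors are named as close relatives. Fmod and Plod1 are named for limits of their calls, and Kat5 and Rtn4 also where they were not called, beside Tgfbr1. Mrtfa, Mrtfb and Cop1 are the current symbols of 3 listed genes. Whether replicate numbers pair PA2 and PA3 libraries is not stated. The deviations from the group mean correlated at 0.213 to 0.382 for the 6 pairs, so a fit with these pairs as a block within genotype was added after seeing the data, as an alternative to the unpaired fit whose values are printed. Replicates are stated to be independent, and no 2 agreed within sampling noise (chi-square per degree of freedom 6.68 to 44.2).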

Additional observations from a re-analysis of the deposited data

How the results depend on the processing

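Of 1235 alternative values, 1204 counted as unchanged and 0 as reversed. A tested value counted as unchanged when it stayed on its side of the threshold. A gene count, or a value without a test, did so when it stayed within a tolerance. A change of sign counted as reversed only beside a call, so that values not called could change sign. Trib2 did so from E12.5 to E14.5, with a log2 fold change of 0.06 in the main fit and -0.06 to 0.09 under other settings. The Phactr3 step from E10.5 to E12.5 passed the test with the 6 libraries of that contrast alone (log2 0.41, edgeR adjusted p 0.0381), and the step from E12.5 to E14.5 ranged from 0.27 to 0.60 with each library left out in turn. The number of genes called in HIRE1del PA2 was 63, against 162 with DESeq2, 105 with a replicate block, which the labels do not support between genotypes, and 33 to 66 with each library left out (35 without WT replicate 2, 33 without WT replicate 3 and 33 without HIRE1del replicate 2). In HIRE1del PA3 it was 31, against 94 with DESeq2, 54 with a replicate block and 8 to 28 with each library left out (11 and 10 without WT replicates 1 and 2, 14 and 8 without HIRE1del replicates 1 and 2). A replicate block within genotype, added after seeing the data, called 6098 genes between the WT arches against 5252, and 12 listed genes higher and 17 lower against 11 and 13. Neither that block nor a replicate block across groups changed the call of any of the 4 genes in a tested contrast. Gpr50 had no value in the stage series when 1 CPM was required in every library, nor from E12.5 to E14.5 with those 6 libraries alone, where it did not pass the filter. With a pseudocount of 2 CPM, 1 of the 3 genes most like Gpr50 was named again. Depth limits Gpr50 at E14.5 (2 to 6 counts) and Phactr3 in PA2 (62 to 114 counts). With 3 libraries per group, the spread itself is known poorly.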
